A study of Homo sapiens with 2 samples.

Results

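The D-type cyclins and the inhibitors of cyclin-dependent kinases (CDKs) were described in tumours of NCI-N87, an established human gastric carcinoma line with amplified ERBB2 (HER2), grown under the skin of nude mice. The members are 10 genes chosen by symbol: 3 D cyclins (CCND1, CCND2, CCND3), 4 inhibitors of the INK4 family (CDKN2A, CDKN2B, CDKN2C, CDKN2D) and 3 of the CIP/KIP family (CDKN1A, CDKN1B, CDKN1C). All 10 were found among the 29972 genes of the deposited table. The untreated group was 1 tumour that received no drug. The T-DM1-refractory group was 1 tumour from mice given trastuzumab emtansine (T-DM1), a HER2 antibody that carries the microtubule poison DM1, every 3 weeks over 18 weeks. Both groups share the line and the host, nude mice, which lack mature T cells but keep B and NK cells. The labels give neither their age nor their sex. With 1 library in each group there is no replicate, so every difference below is between these 2 libraries and no test across samples was possible.

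D cyclins bind and activate CDK4 and CDK6 in early G1, and the complexes phosphorylate the retinoblastoma protein RB so that E2F factors can switch on genes of DNA replication. INK4 proteins bind CDK4 and CDK6 themselves and keep the D cyclins off. CIP/KIP proteins bind complexes of cyclin and CDK, above all those of CDK2, and p21 and p27 also help cyclin D assemble with CDK4. In HER2-driven cells the receptor's signals raise cyclin D1 and lower p27, which places these genes downstream of the target of the conjugate.

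The untreated tumour gave 75722117 expected counts and its refractory counterpart 59902704. Counts were scaled to a common library size (CPM) with TMM factors, and the 14167 genes that reached 1 CPM in at least 1 library are the described genes. A log2 difference is the refractory minus the untreated value of log2(CPM + 1), and genes are called where it reaches 2-fold. All 8 markers of gastric carcinoma epithelium were described in both tumours, with ERBB2 at 7267 and 7975 CPM. Their log2 differences ran from -0.81 (KRT8, 3204 and 1827 CPM) to 1.07 (CEACAM5, 89.7 and 189 CPM), with a median of 0.06. CEACAM5 was the 1 epithelial marker called higher, and 0 were called lower. Of 7 fibroblast markers 1 was described and 4 were at 0 in both libraries, among them COL1A2, COL3A1 and DCN, and the list summed to 2.97 and 2.11 CPM. Of 6 immune markers 3 were described, and the list summed to 28.1 and 101 CPM, nearly all of it LYZ (27.2 and 95.9 CPM), a lysozyme gene that gastric epithelium also makes, while CD3E was at 0 in both. LYZ and ITGAM (0.419 and 3.32 CPM) were called higher and CD14 (0.445 and 1.43 CPM) was not; their part in the results was not tested. Only human genes are listed, so genes of the mouse host are not measured. Whether mouse reads were kept out of the human counts is not stated. Of 5 endothelial markers 1 was described, the list summed to 2.60 and 0.287 CPM, and CDH5 was at 0 in both. In a bulk tumour, fewer cells that make a transcript and less of it per cell cannot be told apart.

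All 10 members were described, CCND2 through the untreated library alone. Of these, 1 was called higher in the refractory tumour (CDKN1A), 3 were called lower (CCND2, CDKN2A, CDKN2B) and 6 lay between. That is 40% of the members, against 20.8% of all described genes called in either direction (9.8% higher and 11% lower). With only 10 genes, named with earlier results of these data known, the share is a description. The median log2 difference was -0.45 over the members and 0.03 over all described genes. By family, 1 of 3 D cyclins and 2 of 4 INK4 genes were called lower, and 1 of 3 CIP/KIP genes was called higher.

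**Figure D1:**
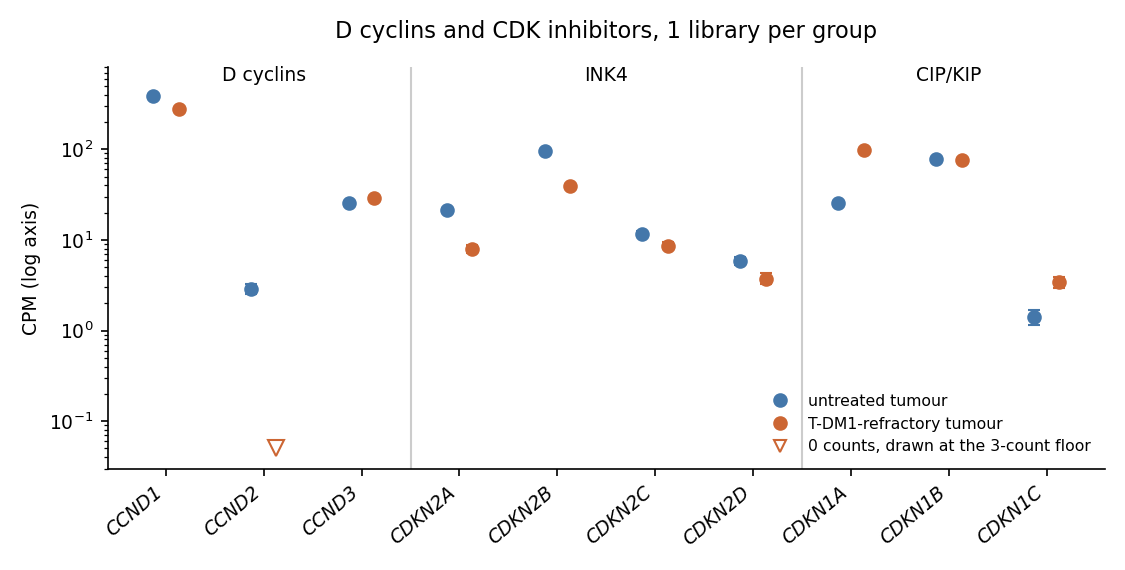
Level of each of the 10 genes in the untreated (blue) and T-DM1-refractory (orange) tumour, in CPM on a log axis, with bars for the exact 95% Poisson interval, which covers counting error only and is often smaller than the point. CDKN1A is higher in the refractory tumour (25.6 and 97.3 CPM), CDKN2A and CDKN2B are lower, and CCND2 has 0 counts there, drawn at the floor of 3 counts.

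Among the D cyclins, CCND1, which encodes cyclin D1 and is the usual D cyclin of epithelial tumours, carried most of the message. Its level was 388 CPM without treatment and 275 CPM in the refractory tumour, 1.41-fold lower (95% interval 1.39 to 1.44). The intervals on ratios here are exact intervals of a pair of Poisson counts and cover counting error only, not variation between tumours or libraries. Reads carried no molecular identifiers and are not independent, so counting error itself may be wider than these intervals. The CCND1 difference was outside counting error but not called, and 21.6% of all described genes were lower by at least as much. CCND3, which encodes cyclin D3, stood at 25.3 and 29.1 CPM, a ratio of 1.15 (95% interval 1.08 to 1.23), also not called.

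CCND2, the gene of cyclin D2, was the rare D cyclin of the untreated tumour and was not detected in the refractory one. It had 220 counts (2.88 CPM) in the untreated library and 0 of 59902704 in the refractory library. Set against a floor of 3 counts in the refractory library (0.0506 CPM), it was at least 56.9-fold lower. That bound holds at the floor only, and the exact 95% interval reaches down to 45.9-fold. Its coding sequence spans bases 4274041 to 4300009 of chromosome 12 on GRCh38. Among the 12201 described genes with at least 200 counts without treatment, 70 (0.574%) were at 0 counts in the refractory tumour. The cut of 200 lies just under the 220 counts of CCND2. Genes with far more counts are included, so this is not the share among genes at the level of CCND2. Per length, CCND2 was a small part of the family to begin with. On the deposited FPKM scale, which divides by gene length and allows genes to be compared, CCND1, CCND2 and CCND3 stood at 98.9, 0.465 and 14.4 FPKM in the untreated tumour, so that CCND2 held 0.409% of the D cyclin sum. With 5 CPM added in place of 1, or on the FPKM scale, CCND2 was no longer called (log2 difference -0.66 and -0.55).

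The INK4 genes CDKN2A and CDKN2B lie side by side on chromosome 9 (coding spans 21968229 to 21971205 and 22005987 to 22008953) and were lower by similar factors. CDKN2A encodes 2 proteins from separate first exons, the CDK4/6 inhibitor p16INK4a and the MDM2 antagonist ARF. Its level was 21.5 CPM without treatment and 7.96 CPM in the refractory tumour, 2.7-fold lower (95% interval 2.44 to 3.0). The table has 1 row for the gene, so the p16INK4a and ARF transcripts are not separated, and the share of each is not known. The coding span listed for CDKN2A ends at base 21971205. That is short of both annotated starts of this minus-strand gene (21974857 and 21995324). CDKN2B, which encodes the TGF-beta-inducible inhibitor p15INK4b, stood at 96.2 and 39.4 CPM, 2.44-fold lower (95% interval 2.33 to 2.56). Of all described genes 7.22% were lower by at least as much as CDKN2A and 7.82% by at least as much as CDKN2B.

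The other INK4 genes were lower by less and were not called. CDKN2C, which encodes p18INK4c, stood at 11.7 and 8.65 CPM, 1.36-fold lower (95% interval 1.22 to 1.52). CDKN2D, which encodes p19INK4d, stood at 5.86 and 3.74 CPM, 1.57-fold lower (95% interval 1.33 to 1.85). The 4 INK4 genes had a median log2 difference of -0.90. CDKN2A and CDKN2B share sequence, and reads can be divided between such paralogs. The counts of both were whole numbers in both libraries, and CDKN1B was the 1 member with a fractional count.

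CDKN1A, which encodes p21, the CDK inhibitor induced by several stress and differentiation routes, was the 1 member called higher. The untreated tumour had 25.6 CPM (1959 counts) and the refractory tumour 97.3 CPM (5771 counts), a ratio of 3.8 with a 95% interval of 3.61 to 4.0. Its coding sequence spans bases 36684102 to 36685800 of chromosome 6. Of all described genes 2.90% were higher by at least as much. CDKN1B, which encodes p27, the inhibitor whose protein level is set largely by degradation, stood at 79.1 and 76.9 CPM, a ratio of 0.973 whose 95% interval (0.936 to 1.01) includes equality. CDKN1C, which encodes p57 from an imprinted locus, stood at 1.41 and 3.40 CPM from 108 and 202 counts. Its plain ratio was 2.41 (95% interval 1.90 to 3.07), but its log2 difference with 1 CPM added was 0.87, short of the call. With 0.1 CPM added the value was 1.21 and CDKN1C was called.

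The authors' deposited table gives a p-value for each gene from 1 library against 1, with a dispersion that the labels and the table do not state. In the authors' deposited table CCND2 was the 1 member of 10 with a p-value under 0.05 (1.64e-06), against 9.49% of all described genes. The authors' deposited table has 0.0841 for CDKN1A, 0.193 for CDKN2A and 0.240 for CDKN2B. These p-values compare the libraries, not the conditions.

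Starts of transcription are shown for the 3 called members that have an entry in the RefSeq promoter table of build GRCh38.p14. CDKN2A has 2 annotated starts and a single row of counts above, and which transcripts that row counts is not stated. Each line gives the 120 bases before an annotated start, 5′ to 3′ on the gene's own strand, with capitals for each match to GGGCGG (the GC box bound by SP1-family factors) or its reverse complement.
CDKN1A (chr6:36678594-36678713, plus strand): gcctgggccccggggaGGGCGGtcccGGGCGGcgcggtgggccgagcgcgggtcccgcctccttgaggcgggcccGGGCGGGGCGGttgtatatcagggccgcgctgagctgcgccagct
CDKN2A, upstream start (chr9:21995325-21995444, minus strand): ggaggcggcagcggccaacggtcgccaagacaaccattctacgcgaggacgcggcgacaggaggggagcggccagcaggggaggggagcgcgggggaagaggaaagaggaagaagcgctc
CDKN2A, downstream start (chr9:21974858-21974977, minus strand): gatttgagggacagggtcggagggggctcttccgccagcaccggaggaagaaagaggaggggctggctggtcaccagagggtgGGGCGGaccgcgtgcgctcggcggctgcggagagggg
CDKN2B (chr9:22009306-22009425, minus strand): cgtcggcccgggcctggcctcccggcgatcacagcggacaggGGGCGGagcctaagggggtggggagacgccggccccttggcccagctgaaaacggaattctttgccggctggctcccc
The CDKN1A stretch holds 4 GC boxes, of which a pair overlap, the downstream CDKN2A stretch 1, the CDKN2B stretch 1 and the upstream CDKN2A stretch 0. In the full 250 bases before each start the counts were 4, 1, 2 and 0 in the same order, and 42.6% of all 35116 promoter windows of that length hold at least 1. None of these 4 windows holds the CCAAT box, the TATA box spelled TATAAA or the E-box spelled CACGTG on either strand, which occur in 32.0%, 10.7% and 6.34% of all windows. GC content of the 4 windows ran from 66.4% to 76.4%, against a median of 58% over all windows. Of the 10 members 7 matched the table, with 12 windows. A match is a run of letters and says nothing about binding in these tumours.

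Summed per length, the 7 inhibitors reached nearly the same level in both tumours while their make-up differed. The sum was 123 FPKM in the untreated and 122 FPKM in the refractory tumour. INK4 genes held 57.4% of it in the untreated and 26.1% in the refractory tumour, with sums of 70.8 and 31.9 FPKM. CIP/KIP genes summed to 52.5 and 90.4 FPKM, a 1.72-fold higher level. In the untreated tumour CDKN1B held 30.4% of the sum, CDKN2A 22.6%, CDKN2B 22.0% and CDKN1A 11.2%. By CPM, which is not scaled by length, CDKN2B held the most there (39.9%). In the refractory tumour CDKN1A led with 42.1%, CDKN1B held 29.3%, CDKN2B 8.93% and CDKN2A 8.60%. Summed D cyclins stood at 114 and 85.5 FPKM, with CCND1 at 86.9% and 80.9% of the family and CCND3 at 12.7% and 19.1%. The ratio of summed D cyclins to summed inhibitors was 0.924 and 0.699. CDK4 and CDK6 together stood at 64.6 and 78.6 FPKM, so that their ratio to the INK4 sum was 0.913 in the untreated and 2.46 in the refractory tumour (2.09 and 6.02 by CPM). These are ratios of mRNA levels and not of proteins. CDKN2A held 39.3% of the INK4 sum in the untreated and 32.9% in the refractory tumour. Its row does not separate p16INK4a from the MDM2 antagonist ARF. An unknown part of the INK4 and inhibitor sums may therefore be ARF message.

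**Figure D2:**
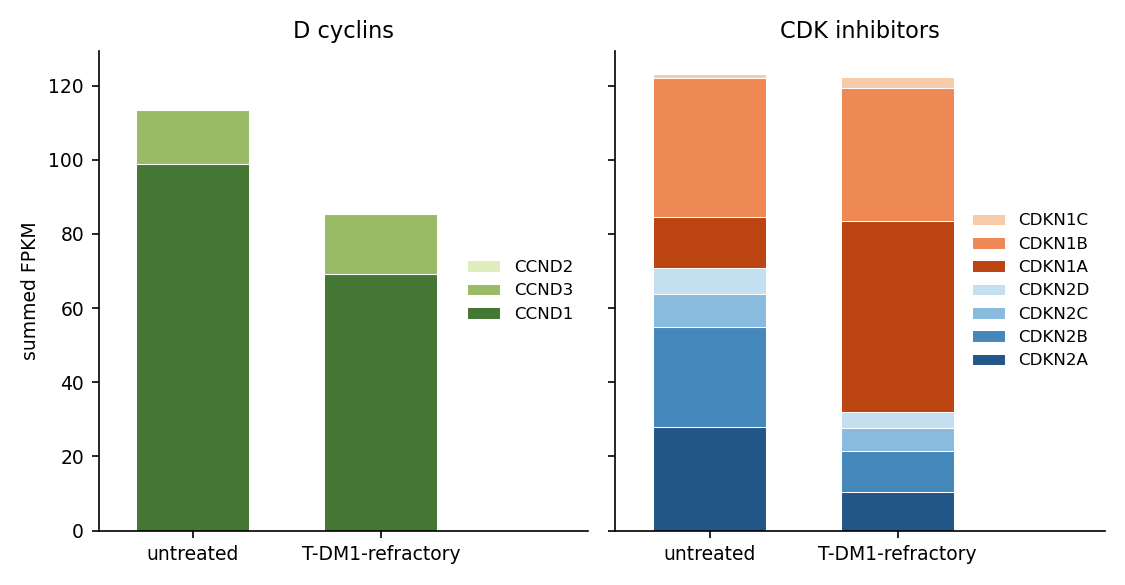
Summed FPKM of the 3 D cyclins (left, greens) and of the 7 CDK inhibitors (right, INK4 genes in blues and CIP/KIP genes in oranges) in each tumour, 1 library per bar and no error bars. The inhibitor bars are of nearly equal height (123 and 122 FPKM), with the INK4 part 57.4% of the untreated and 26.1% of the refractory bar.

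The genes beside each member on its chromosome were described next, as the 10 nearest described genes on each side by gene start in the RefSeq table. Around CDKN1A all 20 neighbours were higher in the refractory tumour, with a median log2 difference of 1.02. Of the 20, 11 were called higher, against 9.8% of all described genes. The nearest were SRSF3, a splicing factor gene, with 335 and 364 CPM (log2 difference 0.12), and PPIL1, a cyclophilin gene, with 25.1 and 54.6 CPM (log2 difference 1.09). CDKN1A itself, at 1.88, lay above each of its 20 neighbours and 0.86 above their median. Over all 13526 described genes with a position, 1.72% had a neighbourhood median at least that high.

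Around CDKN2B 18 of 20 neighbours were lower, with a median log2 difference of -0.96, and 0.577% of positioned genes had a neighbourhood median at least that low. Of the 20, 9 were called lower, CDKN2A among them, against 11% of all described genes. The 20 neighbours spanned 13.1 Mb, against 2.25 Mb around CDKN1A, and were not uniform. They ran from -4.13 (MIR31HG, 65.0 and 2.78 CPM) to 4.31 (MOB3B, 0.405 and 26.8 CPM, the 1 neighbour called higher). CDKN2A shares 17 of these 20 neighbours, so the surroundings of the pair are not independent. MTAP, the methylthioadenosine phosphorylase gene next to CDKN2A, stood at 99.4 and 53.5 CPM, 1.86-fold lower (95% interval 1.78 to 1.94). On the other side DMRTA1 stood at 3.20 and 0.624 CPM, 5.14-fold lower (95% interval 3.63 to 7.47). CDKN2B-AS1, the antisense RNA that overlaps CDKN2B, stood at 5.22 and 2.68 CPM, 1.95-fold lower (95% interval 1.62 to 2.36). Whether counting used the strand is stated neither in the labels nor in the table, so reads of CDKN2B and its antisense RNA may not be fully separated. Without the other members and CDKN2B-AS1 the median was -1.03. CDKN2A and CDKN2B lay 0.37 and 0.31 below the median of their neighbours, and 5 and 7 of the 20 neighbours were lower still. The part of the chromosomal surroundings in the differences of CDKN1A, CDKN2A and CDKN2B was not tested, and DNA copy number was not measured here.

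**Figure D3:**
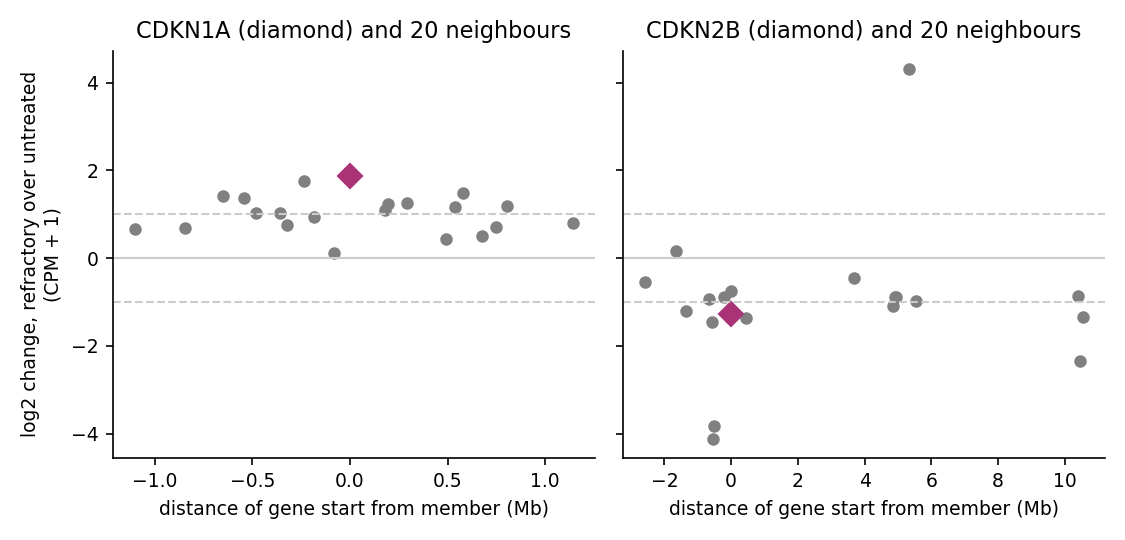
Log2 difference (refractory over untreated, 1 CPM added) of CDKN1A (left) and CDKN2B (right), drawn as diamonds, and of the 20 nearest described genes of each (grey), against the distance of the gene start in Mb, with dashed lines at the 2-fold call. All 20 neighbours of CDKN1A lie above 0 and 18 of 20 neighbours of CDKN2B lie below 0.

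The other members differed in how they sat among their neighbours. CDKN2D, on chromosome 19, was at -0.53 in a neighbourhood with a median of -0.70, where 18 of 20 genes were lower and 15 were lower than CDKN2D. Its nearest described neighbours were KRI1 at 34.1 and 15.5 CPM and AP1M2 at 57.0 and 60.4 CPM. CCND3, on the same chromosome arm as CDKN1A, was at 0.19 beside a median of 0.17. None of its 20 neighbours was called in either direction, against 20.8% of all described genes. CDKN1B (-0.04 beside -0.01) was also level with its surroundings, CDKN2C was at -0.40 beside -0.02, and CDKN1C was at 0.87 beside 0.32. The genes next to CCND3 were BYSL (13.03 and 20.7 CPM) and TAF8 (34.0 and 30.4 CPM), and those next to CDKN1B were GPR19 (3.86 and 5.31 CPM) and APOLD1 (13.2 and 10.97 CPM). CDKN2C lies between FAF1 (73.8 and 82.1 CPM) and RNF11 (170 and 172 CPM). Next to CDKN1C, the imprinted antisense RNA KCNQ1OT1 stood at 77.1 and 50.7 CPM and SLC22A18, another gene of that imprinted cluster, at 4.60 and 11.5 CPM, higher like CDKN1C.

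CCND2 and CCND1 stood below their surroundings. CCND2, at -1.96, lay 1.75 below a median of -0.20. The nearest described neighbours of CCND2 were EFCAB4B at 38.2 and 22.2 CPM and TIGAR, listed as C12orf5, at 45.0 and 30.8 CPM. CCND1, at -0.50, lay 0.76 below a median of 0.27, and 15 of its 20 neighbours were at a higher level in the refractory tumour. Of these 20, 3 were called lower, against 11% of all described genes, and the 3 lay close to CCND1. MYEOV stood at 91.6 and 23.5 CPM, the growth factor gene FGF19 at 24.2 and 1.35 CPM and FGF3 at 3.78 and 0.0506 CPM, the last a count at the floor. ORAOV1, between CCND1 and FGF19, stood at 22.8 and 23.4 CPM. FGF19 and FGF3 were named after their values were seen.

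**Figure D4:**
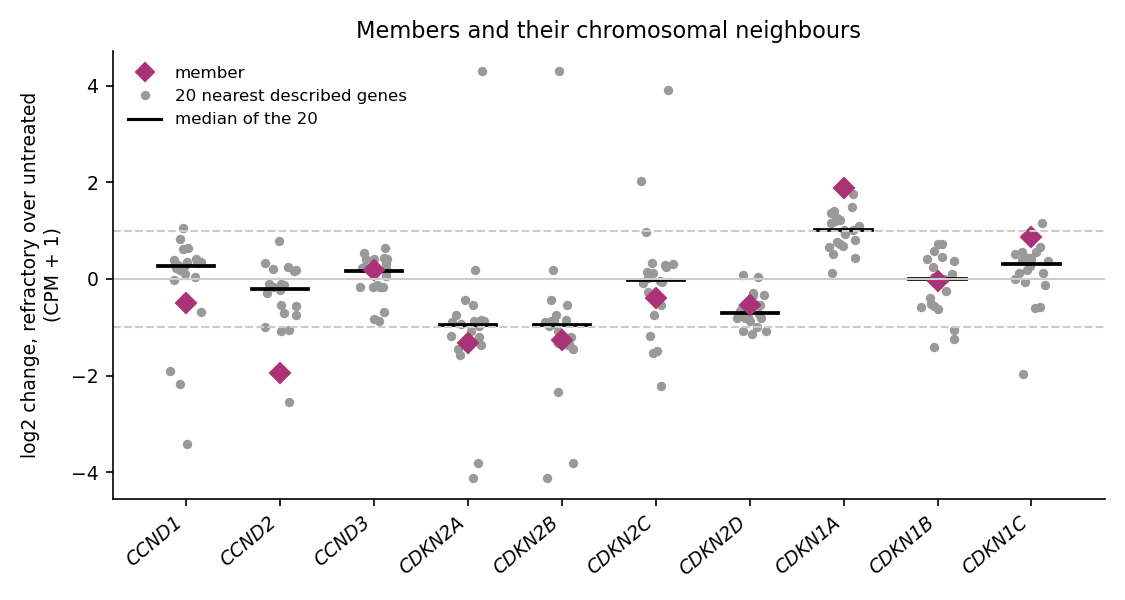
Log2 difference (refractory over untreated, 1 CPM added) of each member (diamond), its 20 nearest described genes on the chromosome (grey, jittered sideways) and their median (bar), with dashed lines at the 2-fold call. CDKN1A sits above all 20 neighbours in a region with a median of 1.02, the CDKN2A and CDKN2B neighbourhood has a median of -0.96, and CCND2 sits 1.75 below the median of its neighbours.

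Of 19 kinases, other cyclins and their regulators 18 were described, CCNA1 being at 0 in both libraries, and 0 of these 18 were called (median log2 difference 0.11). CDK4 stood at 79.1 and 95.5 CPM and CDK6, the other kinase of the D cyclins, at 203 and 264 CPM. CDK2, the kinase of cyclins E and A, stood at 53.2 and 78.8 CPM, a ratio of 1.48 (95% interval 1.42 to 1.54), and the mitotic kinase CDK1 at 215 and 208 CPM. In the RB, E2F and DREAM list 0 of 20 genes were called (median 0.10), with RB1 at 208 and 164 CPM, the RB-binding RBBP4 at 266 and 310 CPM and E2F1 at 28.8 and 26.3 CPM. Of 35 E2F target genes 1 was called higher and 0 lower (median 0.30), the helicase subunit MCM3 at 81.6 and 171 CPM. Of 8 proliferation markers 0 were called (median 0.10), with log2 differences from -0.31 (BUB1) to 0.46 (AURKA) and MKI67 at 481 and 443 CPM. The shares called in these lists (0%, 0% and 2.86% for the first 3) stand beside 20.8% over all described genes.

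Among 21 genes of protein degradation 1 was called higher and 0 lower (median 0.06), a share of 4.76% against 20.8% over all described genes. The called gene was SKP2, the F-box protein that marks p27 for destruction. It stood at 34.8 and 73.1 CPM, a ratio of 2.1 (95% interval 2.0 to 2.21).

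Of 36 described transcriptional regulators of the members 8 were called higher and 5 lower (median -0.01), a share of 36.1% against 20.8% over all described genes. All 6 pathway lists were written with earlier results of these data known, so their shares called are descriptions. KLF6, a zinc-finger factor known to act on CDKN1A, stood at 149 and 597 CPM, and CEBPA at 1.15 and 5.48 CPM. FOSL1, an AP-1 subunit, stood at 6.40 and 20.6 CPM, and MYC, a repressor of CDKN1A and CDKN2B, at 71.1 and 147 CPM. On the lower side LEF1, a WNT effector that acts on CCND1, stood at 8.10 and 0.253 CPM, and the AP-1 gene JUNB had 44.9 and 14.8 CPM. BMI1, the Polycomb repressor of CDKN2A, stood at 114 and 32.9 CPM. The part of these regulators in the differences of the members was not tested. In the senescence and inhibitor-partner list 2 of 12 described genes were called higher and 2 lower (median -0.11), a share of 33.3%. CABLES1, which encodes a CDK-binding protein, stood at 2.69 and 55.5 CPM, a ratio of 20.6 (95% interval 17.9 to 23.8), while its paralog CABLES2 stood at 20.9 and 7.70 CPM. The chromatin protein gene HMGA1 stood at 56.0 and 130 CPM and CDK5R1, an activator of CDK5, at 15.2 and 6.84 CPM. Over the 6 pathway lists, which share some genes, 131 of 134 distinct genes were described, 12 were called higher and 7 lower (median 0.10).

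**Figure D5:**
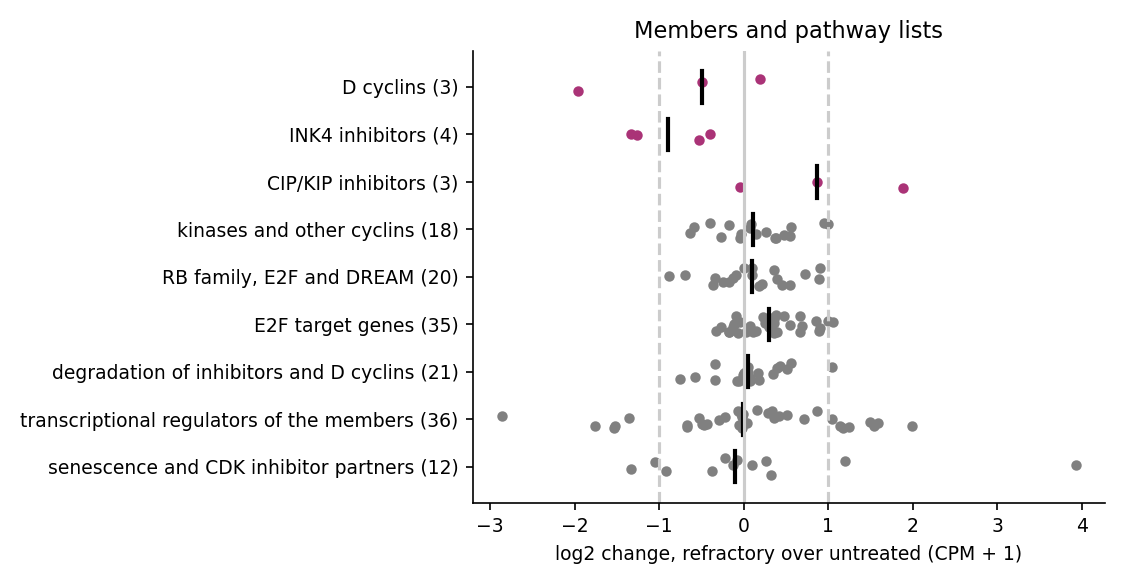
Log2 difference (refractory over untreated, 1 CPM added) of every described gene in the 3 member families (purple) and the 6 pathway lists (grey), with the number described in brackets, a bar at each median and dashed lines at the 2-fold call. The 4 INK4 genes all lie below 0, and the kinase and RB lists have 0 of 18 and 0 of 20 genes past the call.

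With 2 libraries a pattern is a single difference, so likeness was measured as the gap in log2 difference. Among the pathway genes KLF6 (1.99), CEBPA (1.59) and FOSL1 (1.55) lay nearest to CDKN1A (1.88). CABLES2 (-1.33) and KLF5 (-1.36) were the nearest to CDKN2A (-1.33) and to CDKN2B (-1.27) alike, followed by MYCN (-1.52) for CDKN2A and CDK5R1 (-1.05) for CDKN2B. BMI1 (-1.76), JUNB (-1.54) and MYCN (-1.52) were nearest to CCND2 (-1.96), whose own value depends on the added 1 CPM because it had 0 counts.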

How the data were processed

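RNA from 1 untreated and 1 T-DM1-refractory xenograft tumour was sequenced from TruSeq mRNA libraries, per the labels' protocols. The deposited table lists 29972 genes with the authors' expected counts (estimated reads, some not whole) and FPKM for each library, beside the authors' log2 fold change and p-value. The submitters' processing notes name edgeR 3.26.8, RSEM 1.2.28, STAR 2.7.0e and bcl2fastq 2.20 and the builds GRCh38 and GRCm38. What each was used for, the annotation, filters and strand use are not stated there.

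Expected counts were rounded and scaled with TMM factors (1.0097 untreated, 0.9904 refractory) in edgeR 4.0.16. Intervals are exact (Clopper-Pearson, given the sum of both counts) at 95%. Coding starts in the table were counted from 0 and are printed from 1. Gene order came from RefSeq, GRCh38.p14, which placed 95.5% of the described genes. Older symbols were matched through RefSeq synonyms. The calculations were tested on simulated Poisson counts with changes larger than the 2-fold call. That test holds no variation between tumours and does not cover changes near the call or in genes at low counts.

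Members and lists were chosen with earlier results of these data known. Named genes are all members, up to 3 called genes per list and direction (or the 2 most abundant where none was called), 7 genes always named, the nearest described gene on each side of a member and the 3 pathway genes nearest to each called member. Some genes and 1 list fixed at the start are not reported here. The alternatives were 3 other scalings, 2 other pseudocounts, 2 other filters, FPKM, 2 other thresholds and 5 or 20 neighbours a side.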

Additional observations from a re-analysis of the deposited data

How the results depend on the processing

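CDKN1A, CDKN2A and CDKN2B were called under each of the 3 other scalings, both pseudocounts, both filters and FPKM, with log2 differences from 1.74 to 1.92, from -1.42 to -1.03 and from -1.29 to -1.19. At 4-fold 0 members were called, against 6.10% of all described genes. CCND2 lost its call with 5 CPM added (-0.66) or on FPKM (-0.55) and was not described at 10 CPM. CDKN1C was called with 0.1 CPM added (1.21) or at 1.5-fold. No other member crossed the call and none changed direction. Family medians rest on 3 or 4 genes: that of the CIP/KIP genes was 0.39 with 5 CPM added and 1.21 with 0.1 CPM added, and that of the D cyclins was -0.15 at 10 CPM, where CCND2 was left out. With 5 genes a side the neighbourhood median of CDKN1C was 0.16 in place of 0.32, and with 20 a side that of CCND2 was -0.11 in place of -0.20. Without scaling by length (CPM), CCND1 held 93.2% and 90.4% of the D cyclins in the untreated and refractory tumour, CDKN1A 24.1% and 54.8% of the CIP/KIP sum and INK4 genes 56.0% and 25.2% of all inhibitors, CDK4 and CDK6 over INK4 genes were 2.09 and 6.02, and D cyclins over inhibitors were 1.72 and 1.28, so that this ratio lay above 1 by CPM and below 1 by FPKM. The neighbourhoods without other members were chosen after seeing the data. No paired analysis was possible because each group has 1 library. Depth limits CCND2 in the refractory tumour to the bound given above.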
